A study of Mus musculus with 6 samples.

Results

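The interval described here is a stretch of mouse chromosome 7 from 133815000 to 135000000 (mm9) that is syntenic to human 16p11.2, together with its distal flank. Its members are all m6A peaks whose summit lies in that stretch. They were 429 of 90215 peaks, of which m6A IP 1 gave 159, m6A IP 2 gave 152 and m6A IP 3 gave 118. Overlapping peaks of different lists (by 1 base or more) were joined, which left 195 regions of 43377 in the genome. A region is called recurrent here if all 3 lists had a peak in it. The copy-number block from Sult1a1 to Spn, 133815000 to 134285000, held 69 regions in 470 kb. The flank, 134285001 to 135000000, held the other 126 in 715 kb. Members were chosen by position alone, but the interval was proposed with its peak density known, so its density is a description and carries no test.

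The samples were polyadenylated RNA of whole brain of Mus musculus, 3 libraries immunoprecipitated with an m6A antibody and 3 input libraries made without antibody. The labels name no strain, age, sex, genotype or treatment and do not say whether each replicate was its own animal, so SDs over the 3 replicates may be technical. Run names in the headers of the 3 lists hold the letters ctl, which the labels do not define, so a control genotype or treatment within a larger experiment was neither assumed nor excluded. Each list came from 1 IP library set against 1 input. Whole brain mixes neurons, glia and vascular cells, and the lists carry no gene names by which markers of these cells could be checked.

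N6-methyladenosine (m6A) is an internal mark of messenger RNA, written by the METTL3-METTL14 complex on adenosines in a short consensus sequence and read by YTH-domain proteins that act on RNA decay, splicing and translation. In m6A-seq, RNA fragments bound by the antibody pile up over methylated sites, and a peak is a place where the pileup exceeds the local input. The human 16p11.2 interval is known for recurrent deletions and duplications that go with autism, developmental delay and changes in body weight. In order along the chromosome, the copy-number block holds, among others, Coro1a (an actin-binding coronin), Mapk3 (the kinase ERK1), Tbx6 (a T-box factor of the paraxial mesoderm), Ppp4c (a protein phosphatase), Aldoa (a glycolytic aldolase), Doc2a (a calcium sensor of transmitter release), Taok2 (a kinase of dendrite growth), Kctd13 (an adaptor of cullin ubiquitin ligases), Sez6l2 (a neuronal membrane protein), Mvp (the major vault protein), Prrt2 (a presynaptic protein), Maz (a zinc finger factor), Kif22 (a chromosome-binding kinesin) and Qprt (an enzyme of NAD synthesis). This order is that of the RefSeq table on GRCm38.p6, where 31 protein-coding genes and 5 other genes stand from Sult1a1 to Spn. The peak positions are on mm9, and the genes, exons, UTRs and sequences under single regions are not analysed here.

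The IP libraries kept 5676427, 6493926 and 6327958 tags after removal of duplicates, and the inputs 7436658, 11589632 and 7185922. The list of m6A IP 3 was the shortest with 24686 peaks, against 32858 and 32671. Pileup is the number of IP tags over the peak summit. Background, called input level below, is the peak caller's local estimate from the input, scaled to the IP library. Fold is the deposited ratio of (pileup + 1) to (background + 1). The headers name windows of 1000 and 10000 bases for the background, so it need not be the input level at the summit itself. The counting error of the background was not computed. The lowest backgrounds of the interval, 0.152 tags in m6A IP 1 and 0.169 in m6A IP 3, equal the genome averages of these lists. At such peaks the background is not a local reading.

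Peaks were packed densely along the interval. The copy-number block held 56, 57 and 36 peaks in m6A IP 1, 2 and 3, which is 119, 121 and 76.6 peaks per Mb. The flank held 103, 95 and 82 peaks, or 144, 133 and 115 per Mb. In the rest of chromosome 7 there were 15.3, 15.4 and 11.8 per Mb. The density of the block was thus 7.40 ± 0.773 times that of the rest of the chromosome and that of the flank 9.27 ± 0.574 times (SD, n = 3 lists). Between block and flank the values overlapped, at 106 ± 25.2 and 131 ± 14.8 peaks per Mb, although the block was the lower in each list.

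The share of recurrent regions in the interval was close to that of the genome. Of the 69 regions of the block, 26 were found in all 3 lists, 37.7% (Wilson 95% interval 27.2 to 49.5), and of the 126 of the flank 54 were, 42.9% (34.6 to 51.6). Over all chromosomes the share was 38.6%, and 38.5% in the rest of chromosome 7, so neither share stood apart from the background. Without m6A IP 3 a region needs a peak in only 2 lists, so counts and shares rise by construction. The block's count then went from 26 to 45 and its share to 67.2%, above the flank's 63.6%, so no order between the blocks is stated. The share over all chromosomes was not computed for that setting, so the rise is no trait of the block. A further 22 regions of the block, 31.9%, and 30 of the flank, 23.8%, were found in 2 lists, against 22.6% over all chromosomes. Those in 1 list were 21, or 30.4%, and 42, or 33.3%, against 38.8%.

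Per gene, recurrent regions of the block were far nearer to the rest of the genome than per Mb. The block had 55.3 recurrent regions per Mb and the flank 75.5, against 7.83 in the rest of chromosome 7, ratios of 7.06 and 9.64. Counted over the 31 protein-coding genes that the RefSeq table lists from Sult1a1 to Spn, the block had 0.839 recurrent regions per gene. Chromosome 7 as a whole had 0.623 and the 19 autosomes with X had 0.775 per gene. The block's value was 1.35 times that of chromosome 7 and 1.08 times that of the autosomes with X. This count takes only the order of genes from GRCm38.p6 and no coordinate.

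**Figure D1:**
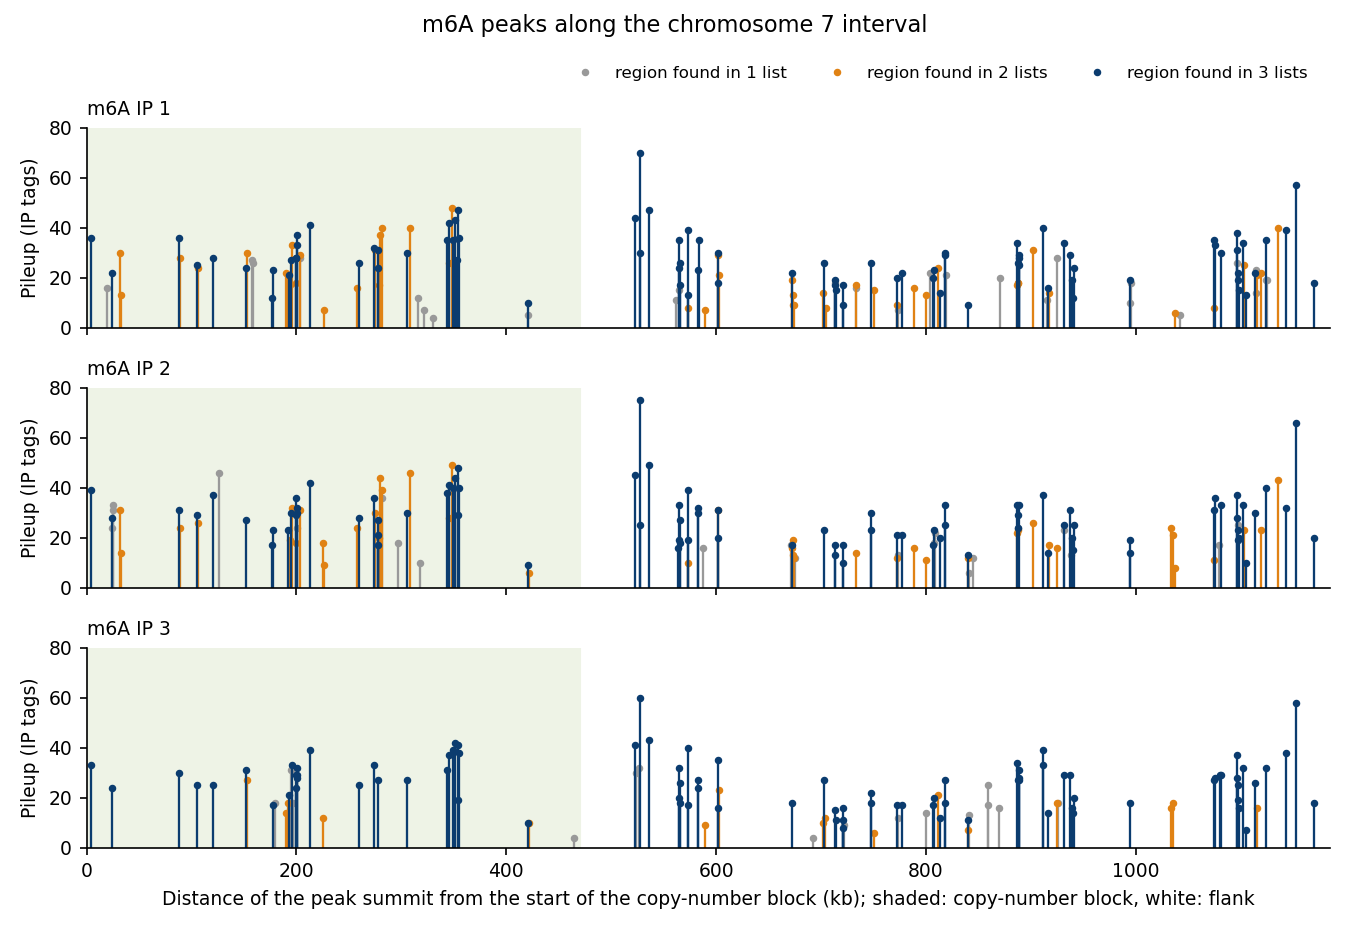
Pileup in IP tags of every peak of the interval (vertical axis) against the distance of its summit from the start of the copy-number block in kb (horizontal axis), 1 panel per list, with the block shaded. Blue marks peaks of regions found in 3 lists, orange in 2 and grey in 1. The block is empty between 354.9 and 420.7 kb in each list, and only 2 places, both in the flank, rise above 50 tags.

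Regions were unevenly spread within the interval. In windows of 50 kb counted from the start of the block, the fullest were those at 150 to 200 kb in the block and at 800 to 850 kb in the flank, with 17 regions each, of which 6 each were recurrent. The windows at 550 to 600 kb and at 1050 to 1100 kb held the most recurrent regions, 8 each. Between such groups lay 5 stretches of more than 50 kb with no peak in any list. The longest was 69.2 kb in the flank, from 602.5 to 671.7 kb, and the next was 65.8 kb in the block, from 354.9 to 420.7 kb. A stretch of 58.6 kb, from 464.2 to 522.8 kb, crossed the edge between block and flank.

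The distal end of the block was sparse. In its last 115 kb, from 134169921 to 134285000, there were 4 regions, 1 of them recurrent, with pileups of 4 to 10 tags over mean backgrounds of 0.152 to 0.386 tags. Just before it, 11.3 kb from 134158618 to 134169920 held 10 regions, 7 of them recurrent, with pileups of 19 to 49 tags over mean backgrounds of 6.41 to 19.2 tags. Both stretches were picked out after their values were seen. They show that peaks over high and over near-empty input both lay within the block, with 65.8 kb free of peaks between them. The lowest background, 0.152 tags, equals the genome average for m6A IP 1. Input was read only under peaks.

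At the edges of the rule, the first region inside the block began 4.0 kb from its start, with pileups of 36, 39 and 33 tags. The last region before it, 22.0 kb outside, was found in m6A IP 1 and 2 at 12 and 18 tags. The last region of the block, from 134279117 to 134279166, was a single peak of 4 tags in m6A IP 3. The first of the flank, from 134337779 to 134338105, stood at 44, 45 and 41 tags. At the far end, the last region inside had 18, 20 and 18 tags and the first outside, 9.84 kb beyond the edge, had 15, 19 and 21.

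Peaks of the copy-number block were higher than those of the flank and of the genome, over a higher input. In m6A IP 1, 2 and 3 the median heights were 27.5, 30 and 27 tags of pileup, a mean of 28.2 ± 1.61 (SD, n = 3). In the flank it was 20, 21 and 19.5 tags, a mean of 20.2 ± 0.764, and over all chromosomes 19, 21 and 19. The block stood above both in every list with no overlap, and the ratio of block to flank was 1.40 ± 0.0286. A count of 28 tags has a 95% exact Poisson interval of 18.6 to 40.5, which applies to single peaks and not to these medians.

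The input moved the same way. The median background of the block was 6.11, 6.72 and 5.99 tags, against 3.43, 3.36 and 3.52 in the flank and 3.05, 3.36 and 3.13 over all chromosomes. The ratio of block to flank was 1.83 ± 0.156. A background of at least 10 tags lay under 30.4%, 33.3% and 19.4% of the block's peaks, under 6.80%, 9.47% and 10.98% of the flank's, and under 10.04%, 13.2% and 11.1% of all peaks. Whether more input came from more cells of a type or from more RNA per cell cannot be told apart in whole brain, and the part of the input level in the peak heights was not tested.

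Fold, which divides by the background, was lower in the block. The median fold of the block was 3.81, 3.74 and 3.92, a mean of 3.82 ± 0.0927, and that of the flank 4.93, 4.83 and 4.38, a mean of 4.71 ± 0.289. Over all chromosomes it was 4.78, 4.58 and 4.55. The block was below the flank and below the genome in each list, and the flank did not stand apart from the genome. Median peak lengths were 105, 91 and 89.5 bases in the block and 90, 104 and 93 in the flank, which overlap with each other and with the 101, 101 and 94 bases of all peaks.

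**Figure D2:**
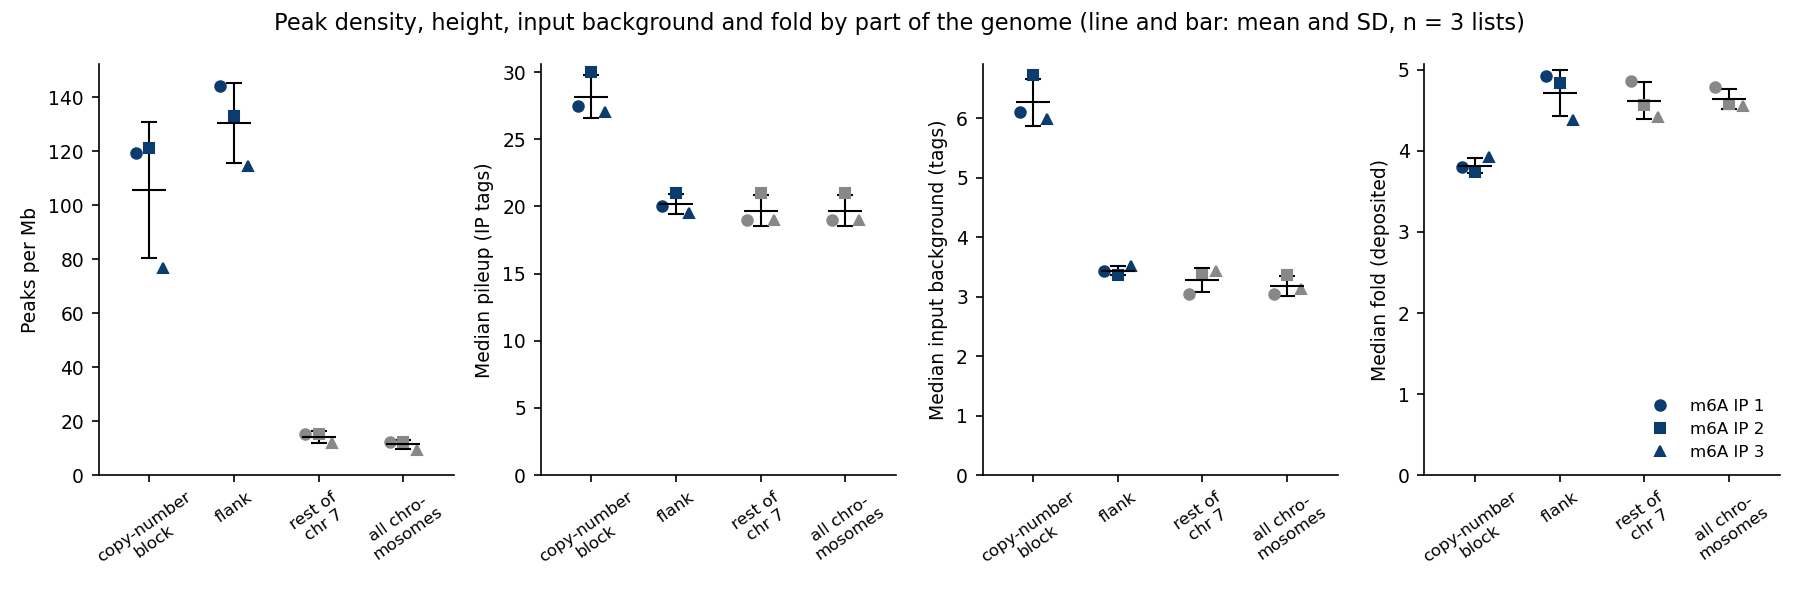
Peaks per Mb, median pileup, median input background and median deposited fold (vertical axes, each from 0) for the copy-number block, the flank, the rest of chromosome 7 and all chromosomes, with 1 point per list and the mean and SD over 3 lists. Both blocks exceed 76 peaks per Mb in each list, and the copy-number block alone has median pileups of 27 tags or more.

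Strong peaks were about as frequent as elsewhere. In the block 12 of 56, 11 of 57 and 6 of 36 peaks had a −log10 q of at least 10, which is 21.4%, 19.3% and 16.7%. The genome had 22.8%, 22% and 15.3% in m6A IP 1, 2 and 3. The flank had 26.2%, 26.3% and 20.7%, with 27, 25 and 17 such peaks. In each list the block's share was below the flank's.

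Set beside peaks of like input level, the block's median folds lay on both sides of the genome's at every level. With a background of 3 to 10 tags, the median pileup was 26, 27 and 27 tags in the block, 24, 24 and 25 in the flank and 25, 26 and 25 over all chromosomes. The median folds in that range were 3.90, 3.97 and 3.92 in the block against 4.10, 3.99 and 3.86 over all chromosomes, so they lay on both sides. At 10 tags or more the block's median pileups were 33, 38 and 33 tags against 39, 38 and 37 over all chromosomes, with folds of 2.40, 2.67 and 2.26 against 2.58, 2.62 and 2.50. Peaks of the block were thus no higher than others over such input. Under 3 tags the median pileups were 13, 24 and 12 tags against 12 in each list over all chromosomes, and the folds 6.01, 7.89 and 8.13 against 6.08, 5.92 and 5.77. There the block's fold was above the genome's in m6A IP 2 and 3 and close to it in m6A IP 1. The upper range rests on 17, 19 and 7 peaks of the block and the lowest on 13, 11 and 7.

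**Figure D3:**
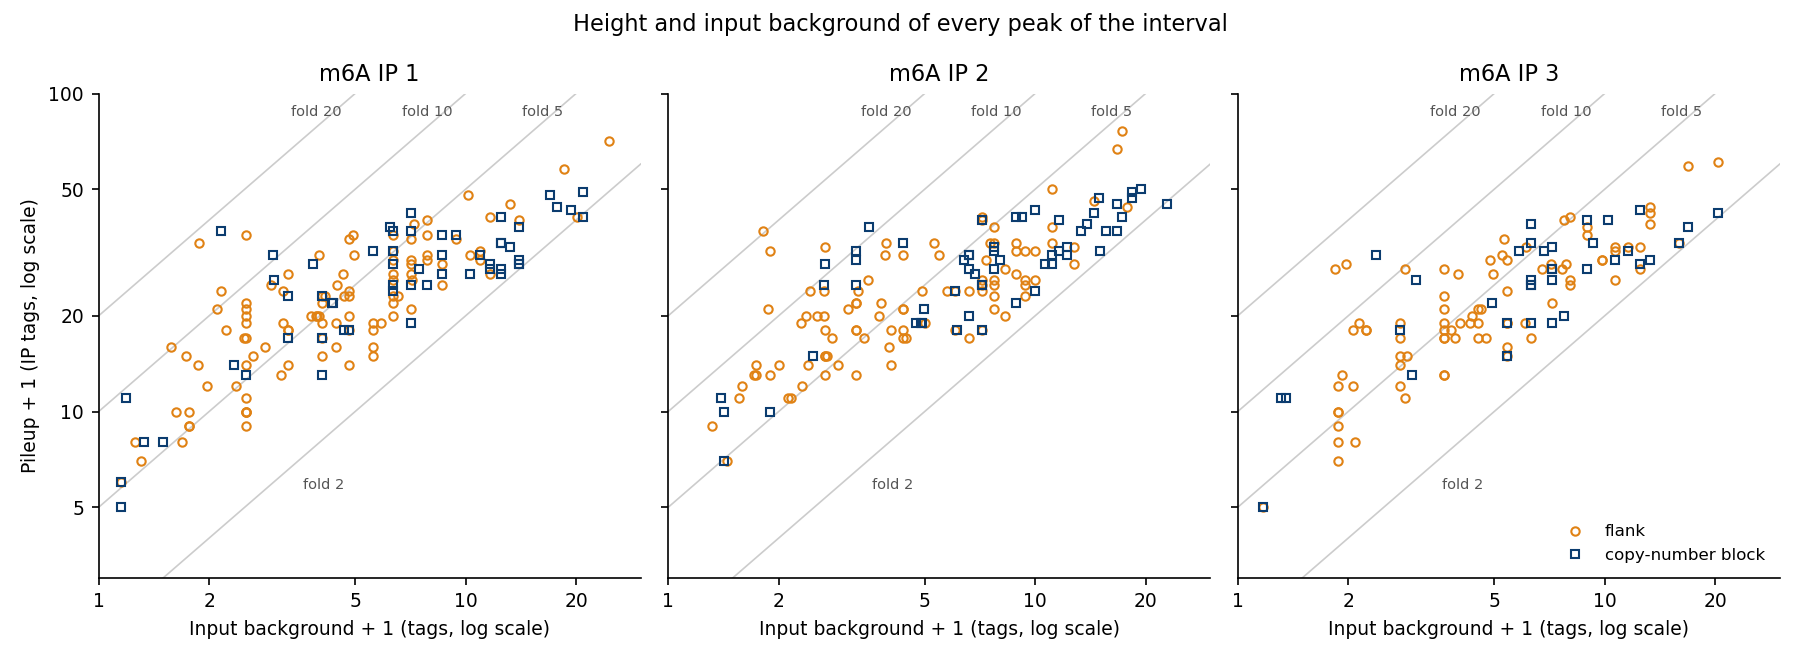
Pileup + 1 (vertical axis, IP tags) against input background + 1 (horizontal axis, tags), both on log scales, for every peak of the interval in each list. Squares are the copy-number block, circles the flank, and grey lines mark equal deposited fold. Many squares lie to the right of the circles, at higher background, and the few points near the fold 20 line have backgrounds of about 1 tag.

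The list of m6A IP 3 was thinner in the block than elsewhere. Its 36 peaks were 63.7% of the mean of the other lists, against 82.8% in the flank, 76.8% in the rest of chromosome 7 and 75.3% over all chromosomes. Of the block's 22 regions found in 2 lists, 17 were found in m6A IP 1 and 2 but not in 3, which is 77.3%. The same pattern made up 63.3% of such regions in the flank, 68.2% in the rest of chromosome 7 and 67.4% over all chromosomes, so most regions of 2 lists lacked m6A IP 3 everywhere. With 22 regions in the block, no difference in this share is claimed. In these 17 the median pileup was 28 tags in both lists, near the 30.5 of the recurrent regions, while the median fold was 3.18 and 3.49 against 3.998 and 4.11. Their background was at least 10 tags in 7 and 6 of 17 cases, against 7, 9 and 7 of the block's 26 recurrent regions in m6A IP 1, 2 and 3. Over all chromosomes it was so in 1029 and 1090 of 6597 regions with this pattern. The 19 such regions of the flank had a median pileup of 16 tags in both lists over backgrounds of 1.53 and 2.24. Whether input level set what m6A IP 3 missed was not tested.

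Among recurrent regions of the copy-number block, 6 of the 8 with the highest mean pileup lay in the 11.3 kb named above. The highest, 490 bases from 134168783 to 134169272, had pileups of 47, 48 and 41 tags and folds of 2.82, 2.67 and 2.06, a mean fold of 2.52 ± 0.401 (SD, n = 3). Next was 134165716 to 134165992, with 43, 44 and 42 tags but folds of 2.47, 1.97 and 3.45. Its heights agreed within counting error, and its background ran from 11.4 to 21.9 tags. In that stretch too, 134159966 to 134160304 had 42, 41 and 37 tags at folds of 2.23, 2.91 and 2.26. The region from 134158618 to 134158853 had 35, 38 and 31 tags, and its fold in m6A IP 1, 4.17, was above the 2.81 and 2.77 of the others.

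Not every high region of the stretch had a low fold. At 134169767 to 134169920, 154 bases, pileups of 36, 40 and 38 tags came with folds of 5.21, 4.64 and 6.21, a mean of 5.35 ± 0.795, and the summit was at the same base in all 3 lists. Only 494 bases separate it from the highest region, whose mean fold was 2.52. The region from 134164521 to 134164602, 82 bases, had 35, 40 and 39 tags at folds of 3.83, 4.45 and 3.93. Neighbouring segments thus differed in fold by more than their spread over replicates while their heights lay within each other's counting intervals.

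The other 2 of the 8 stood apart from the rest of the list. At 134027947 to 134028145 the pileups were 41, 42 and 39 tags and the folds 5.91, 4.32 and 4.48. The first region of the block, 133818997 to 133819092, had 36, 39 and 33 tags and folds of 5.83, 5.58 and 5.41, a mean of 5.61 ± 0.212. Its coefficient of variation, 3.78%, was the smallest of the 80 recurrent regions of the interval.

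Of the 5 highest mean folds of the block 4 lay in its proximal part. At 133903211 to 133903326, 116 bases, pileups of 36, 31 and 30 tags over backgrounds of 1.15, 2.24 and 1.38 tags gave folds of 17.2, 9.87 and 13.0, a mean of 13.4 ± 3.67. It was the only recurrent region of the block with a mean fold of at least 10, 3.85% of 26, against 4.32% of recurrent regions in the genome. Its pileups differed by less than their Poisson intervals (25.2 to 49.8 for 36 tags), while its fold spread from 9.87 to 17.2.

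A region at 133920530 to 133920658 was steadier, with 25, 29 and 25 tags and folds of 8.68, 9.26 and 8.52, a mean of 8.82 ± 0.387. By contrast, 133935593 to 133935716 had folds of 7.58, 10.8 and 4.14 and 133838998 to 133839260 had 6.99, 10.8 and 3.98. In both the background of m6A IP 3 was 5.28 tags, more than in the other lists, and their means of 7.50 ± 3.33 and 7.26 ± 3.43 carry a wide error. The fifth, 134236010 to 134236174, belongs to the sparse end of the block. Its pileups were 10, 9 and 10 tags, and its folds of 9.24, 7.04 and 8.41 rest on backgrounds of 0.191, 0.420 and 0.308 tags.

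The longest recurrent region of the block measured 534 bases, from 134092508 to 134093041. It held 2, 3 and 1 peaks in m6A IP 1, 2 and 3, with highest pileups of 31, 27 and 27 tags and highest folds of 5.04, 4.24 and 3.91. The lists thus differed in how they cut this stretch more than in its height. The regions next in length, 490 and 339 bases, were among the highest described above.

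In the flank, 2 regions exceeded 50 tags in every list. With 1 tag kept per position, tags of 50 bases can put at most 50 tags of 1 strand over a base, so a height above 50 needs tags of both strands. At 134342036 to 134342467, 432 bases, the highest pileups were 70, 75 and 60 tags over highest backgrounds of 23.7, 16.2 and 19.4, with highest folds of 3.02, 4.41 and 2.99. At 134967806 to 134967976 they were 57, 66 and 58 tags, with folds of 3.13, 4.01 and 3.50. No peak of the copy-number block passed 50 tags. In the genome 134 of 32858, 163 of 32671 and 68 of 24686 peaks did. With so small a share, none among the block's 56, 57 and 36 peaks does not set the block apart.

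The first of these regions had high neighbours, among them the start of the flank. At 134337779 to 134338105, folds of 3.41, 3.18 and 3.15 gave a mean of 3.25 ± 0.139, and at 134351008 to 134351589 pileups of 47, 49 and 43 tags came with folds of 4.72, 4.51 and 3.30. At 134388506 to 134388613 the pileups of 39, 39 and 40 tags and the folds of 5.08, 5.58 and 5.10 were alike in all lists. The other 3 of the flank's 8 highest had mean pileups between 36.3 and 38.7 tags. Their mean folds were 4.04 ± 0.984 at 134726488 to 134726786, 4.86 ± 0.574 at 134911695 to 134912103 and 2.79 ± 0.181 at 134958618 to 134958672.

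A pair of neighbouring regions in the flank had the highest folds of the whole interval. At 134890122 to 134890516, 395 bases, pileups of 33, 36 and 28 tags over backgrounds of 0.878, 0.812 and 0.969 tags gave folds of 18.1, 20.4 and 14.7, a mean of 17.8 ± 2.86. At 134889793 to 134889964, 172 bases, 35, 31 and 27 tags gave 14.2, 16.9 and 15.2, a mean of 15.5 ± 1.32. Only 157 bases separate them, and their folds overlap. They were the 2 of 54 recurrent regions of the flank with a mean fold of at least 10, or 3.70%. The next in fold had means of 9.21 ± 1.88 at 134985304 to 134985548, 8.56 ± 3.45 at 134622237 to 134622422 and 8.50 ± 1.60 at 134587654 to 134587965.

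Long regions were of moderate fold. The longest of the interval, 700 bases from 134378889 to 134379588, had highest pileups of 35, 33 and 32 tags and folds of 5.68, 4.99 and 2.65. Regions of 626 bases, from 134562510 to 134563135, and of 591 bases, from 134528345 to 134528935, had mean folds of 6.54 ± 2.40 and 4.88 ± 0.565. The latter was split into 3, 2 and 2 peaks in m6A IP 1, 2 and 3.

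**Figure D4:**
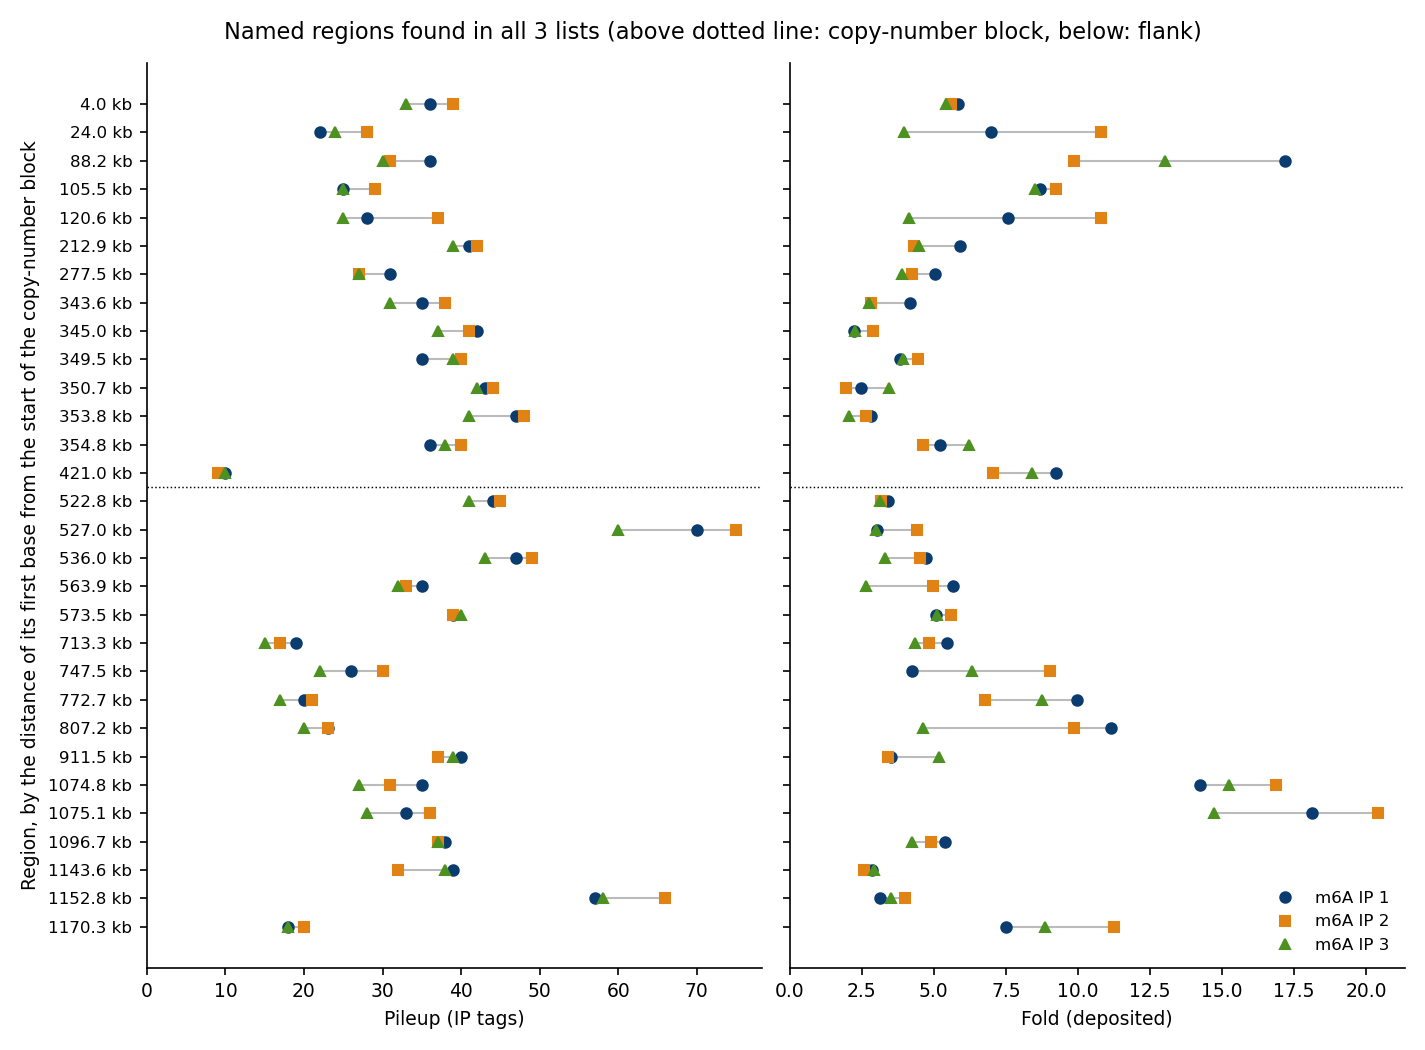
Pileup in IP tags (left) and deposited fold (right) in each list for the named regions found in all 3 lists, ordered by the distance of their first base from the start of the copy-number block in kb. The grey line spans the 3 lists. Pileups of a region mostly lie close together, while folds spread widely in some regions, as at 88.2 kb with 17.2, 9.87 and 13.0, and little in others, as at 105.5 kb with 8.68, 9.26 and 8.52.

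Recurrent regions with a recurrent neighbour at most 1000 bases away were 7 of 26 in the block, 26.9%, and 30 of 54 in the flank, 55.6%. The share was 37.6% in the rest of chromosome 7 and 36.6% over all chromosomes. The block had 2 runs of such neighbours and the flank 11. With gaps of up to 2000 bases the block had 11 such regions, 42.3%, and the flank 30, while the share was 44.3% in the rest of chromosome 7 and 42.2% over all chromosomes. The block's lower share at 1000 bases was thus not seen at 2000. Median spacing between recurrent regions was 11894 bases in the block and 5180 in the flank. It was 19059.5 bases in the rest of chromosome 7 and 24246 over all chromosomes, so both blocks were more closely spaced.

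In the run of the block with the most regions, higher and lower folds alternated. It held 4 in 1401 bases, from 134014652 to 134016052. Their mean folds were, in order, 4.41 ± 0.378, 2.23 ± 0.152, 4.99 ± 0.974 and 2.69 ± 0.138, over mean backgrounds of 5.34, 13.3, 6.04 and 11.4 tags. Their pileups lay between 24 and 37 tags in all lists. The second run, 134168431 to 134169920, had 3 regions at mean folds of 3.36 ± 0.671, 2.52 ± 0.401 and 5.35 ± 0.795. Whether such neighbours are separate methylated segments or pieces of 1 enriched stretch was not tested.

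The largest run of the flank, 134911428 to 134913533, held 5 regions in 2106 bases, with mean folds of 3.09 to 5.70. Pileup fell along it from 37.3 tags in its second region to 17 in its last, and mean background from 9.27 in its first to 2.19 in its last. The fourth region, 134912861 to 134912961, had 19 tags in every list. A run at 134378889 to 134380671 and another at 134701515 to 134704039 held 4 regions each, at mean folds of 3.68 to 4.89 and 3.63 to 6.75.

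Some regions missed by a list were as high as the recurrent ones. In the block, 134163348 to 134163844 had 48 and 49 tags in m6A IP 1 and 2 at folds of 2.35 and 2.57, and 134123498 to 134123635 had 40 and 46 tags at 1.97 and 3.15. A peak at 133941206 to 133941279 had 46 tags in m6A IP 2 alone, at a fold of 2.56 over 17.4 tags of background. In the flank, 134950483 to 134950577 had 40 and 43 tags in m6A IP 1 and 2 at folds of 2.04 and 2.47. The region from 134416434 to 134416556 had 29 and 31 tags in the same lists, and a peak of 32 tags at 134341916 to 134341967 was called in m6A IP 3 alone, 68 bases before the region of 60 to 75 tags. All 6 had folds of at most 3.21 over backgrounds of at least 8.97 tags.

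Heights were ranked more alike between lists than folds. Across regions of the interval with peaks in both lists, Spearman's rho of the pileup was 0.939 for m6A IP 1 and 2 (116 regions), 0.934 for 1 and 3 (90 regions) and 0.919 for 2 and 3 (86 regions). For the fold it was 0.699, 0.615 and 0.671. Taken apart, the fold's rho for the same pairs was 0.795, 0.709 and 0.648 in the block and 0.545, 0.559 and 0.697 in the flank, so the order of the blocks turned for m6A IP 2 and 3. These are descriptions across regions that share libraries. The median coefficient of variation over lists was 8.34% for pileup and 16.4% for fold in the block's recurrent regions, and 10.01% and 18.6% in the flank's, near the 9.94% and 20.5% of the genome. It passed 30% for fold in 4 of 26 and 10 of 54 regions. The same count was not made over all chromosomes, so it sets neither block apart.

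Summits were placed closely. In the 23 recurrent regions of the block with 1 peak in each list, the outermost summits lay a median of 14 bases apart, and in 45 of the flank 21 bases, against 20 over all chromosomes. In 15 and 25 of them the spread was at most 25 bases, 65.2% and 55.6%, and in the genome 56.4%. The widest was 215 bases in the block and 172 in the flank.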

How the data were processed

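Polyadenylated RNA of whole mouse brain was profiled by m6A-seq in 3 IP and 3 input libraries, grouped by their titles. Per the submitters' processing notes, TopHat2 2.1.0 and MACS2 2.1.0 were used with mm9. Per the file headers, the authors called peaks per replicate with MACS 2.1.0.20151222 at a q-value cutoff of 5.00e-02, tags extended to 50 bases, 1 tag kept per position and the larger library scaled to the smaller. The deposited columns are the pileup (a coverage signal), the fold enrichment (a ratio) and −log10 p-values and q-values.

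Coordinates are 1-based on mm9. Peaks sharing 1 base were merged, and a region's pileup, fold and background in a list are the maxima over its peaks there, each taken on its own. The background was recovered from the deposited fold and pileup, and the −log10 of a Poisson p-value from it lay within 6.71e-05 of the deposited one. Densities outside the interval use the span up to the last peak of each chromosome. Merging was tested on simulated data with 1 peak per list in a region. Regions with several peaks of a list, and neighbours as close as 35 bases in the block, were not simulated. Intervals (95% Wilson, exact Poisson) cover counting error only. No p-value was computed, because peaks are not replicates and all samples are of 1 tissue.

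Members and lists were chosen with earlier results of these data known. Named by rule, per block, were the 8 recurrent regions with the highest mean pileup, the 5 with the highest mean fold, the 3 longest, 2 runs and 3 regions missed by a list. Of 29 listed gene symbols, 28 matched the RefSeq table. Alternatives changed the peak threshold, block membership, list length, overlap, replicates required and gap, and left out each replicate. Tables were computed with pandas 2.3.3, numpy 2.4.6 and scipy 1.17.1 and drawn with matplotlib 3.10.9 under Python 3.11.15.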

Additional observations from a re-analysis of the deposited data

How the results depend on the processing

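No paired analysis was possible because the input libraries have no list of their own and each IP was already set against 1 input. Under the 7 alternatives run on each, the block kept the higher median pileup, the lower median fold and the lower peak density. That order was the same in each list, so leaving out a replicate keeps it by arithmetic, and taking peaks by overlap changed no value. Only the 2 thresholds and the lists of equal length could have turned it. The order of median lengths held in 5 of 7 alternatives and that of recurrent shares in 6 of 9. With a −log10 q of at least 10, block and flank had 20.6 and 32.2 peaks per Mb, 5 and 10 recurrent regions (29.4% and 25.6%), median lengths of 112 and 197 bases, pileups of 32 and 29.3 tags and folds of 6.73 and 7.25. With a fold of at least 4, they had 45.4 and 83.9 peaks per Mb, 8 and 25 recurrent regions (21.1% and 25.5%), lengths of 98 and 105 bases, pileups of 25.3 and 18.7 and folds of 5.40 and 5.51. These filters leave fewer peaks by construction. With lists of equal length, block and flank had 85.1 and 111 peaks per Mb and 18 and 43 recurrent regions (30% and 38.7%). Their median lengths were then 94.5 and 108 bases, pileups 28.3 and 21.5 tags and folds 4.37 and 5.02. A reciprocal overlap of 50% gave 17 and 43 recurrent regions (19.3% and 27.9%), and requiring 2 lists gave 48 and 84 (69.6% and 66.7%). Leaving out each replicate, and counting regions found in both other lists, gave 28 to 45 recurrent regions in the block (45.9% to 67.2%) and 59 to 75 in the flank (53.6% to 63.6%), the highest without m6A IP 3. With gaps of 2000 bases 11 regions of the block lay in runs, 42.3% against 42.2% over all chromosomes, where gaps of 1000 gave 26.9% against 36.6%. For the 30 named regions found in all lists, mean pileup and mean fold moved by at most 1 SD in all 180 values that leave out a replicate. With 3 values per mean this holds by arithmetic, so it is no test of stability. Taking peaks by overlap changed no density, recurrence, length, pileup or fold of block or flank.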
